A study of Mus musculus with 4 samples.

Results

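The Wnt ligands studied here were 10 with roles in bone, namely Wnt2b, Wnt4, Wnt5a, Wnt5b, Wnt6, Wnt9a, Wnt10a, Wnt10b, Wnt11 and Wnt16. They were taken by gene symbol, from a list of names that sets no threshold on their values, and all 10 were found among the 24346 rows of the expression table, which holds 19 Wnt ligands in all. Expression was measured by RNA-seq in mBMSCs, primary stromal cells grown out of the femoral marrow of 3-month-old C57BL/6 mice (C57BL/6J in the study's methods) and passaged after the nonadherent cells were washed off. A pair of samples was transfected with siScr, a scrambled siRNA, and another pair with siRNA against Zbp1 (siZBP1), which encodes a sensor of Z-form nucleic acids, and RNA was taken 72 h later from cells not described as receiving osteogenic or adipogenic medium or added Wnt protein. Which of the study's siRNAs against Zbp1 was sequenced is not stated, and the duplicates are not said to come from separate mice or cultures, so p-values measure only the spread between these samples, which may be technical. Levels are FPKM, numbers of fragments scaled to transcript length and to the mapped fragments of the sample, so that genes can be compared with each other.

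Wnt ligands are secreted glycoproteins that carry a lipid, added by Porcn, and leave the cell bound to the carrier Wls. At the receiving cell they bind Frizzled receptors together with Lrp5 or Lrp6, which stabilises β-catenin and turns on genes through Tcf and Lef factors, or together with Ror2 or Ryk, which act through planar polarity and calcium branches without β-catenin. In marrow, the β-catenin branch favours osteoblasts and holds back adipocytes, and Wnt10b is the ligand most closely tied to that choice.

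The targeted gene was lower in both samples labelled siZBP1. Zbp1 measured 86.0 and 62.0 FPKM in the siScr samples and 11.5 and 11.6 FPKM in the siZBP1 samples, which is 6.40-fold lower. The FPKM values of a sample summed to between 477974 and 492166. FPKM are already scaled to the mapped fragments of the sample, so these totals say little about differences between samples. Stromal markers were present at widely differing levels, with Col1a2, a chain of type I collagen, at 1806 to 2092 FPKM. Levels in this list ran from Lepr, at 0.414 to 1.28 FPKM, up to Col1a1, at 1128 to 3066 FPKM. Pdgfra was at 1.31 to 3.97 FPKM and Thy1 at 1.48 to 4.49 FPKM, whereas Ly6a was at 156 to 254 FPKM. All 14 macrophage markers were also present, with Cd68 at 712 to 890 FPKM. Csf1r, the receptor for macrophage colony-stimulating factor, was at 467 to 584 FPKM. Of the adipocyte markers, Plin1 and Cfd were at 0 in all 4 samples, whereas Lpl was at 218 to 277 FPKM, Fabp4 at 91.2 to 114 FPKM and Pparg at 13.7 to 22.8 FPKM. Of the lymphoid markers, Cd3g was at 0 in all 4 samples and Cd4 was at 3.66 to 5.61 FPKM. Macrophage transcripts were thus abundant in all samples of cells labelled as stromal, and in bulk RNA fewer cells of a type cannot be told apart from less RNA per cell.

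In siScr cells the ligand mRNA was mostly Wnt5a and Wnt10b. Wnt5a, which acts mainly through Ror2 and without β-catenin, was the most abundant at 11.3 ± 0.569 FPKM (SD, n = 2), followed by Wnt10b at 6.33 ± 1.80 FPKM. Wnt4 at 2.05 ± 0.422 FPKM and Wnt16 at 1.63 ± 0.424 FPKM came next with overlapping samples, and Wnt9a stood below them at 1.07 ± 0.0691 FPKM. Wnt11, Wnt5b and Wnt2b lay between 0.448 and 0.686 FPKM on average. Wnt11 overlapped Wnt5b, and Wnt5b overlapped Wnt2b and Wnt7b, a ligand outside the set. The higher Wnt2b sample, at 0.5327 FPKM, was barely below the lower Wnt7b sample, at 0.5334 FPKM. Wnt6 and Wnt10a were essentially undetected. After Zbp1 depletion Wnt5a was still the most abundant, Wnt9a had taken the second place ahead of Wnt10b, and Wnt16, Wnt4, Wnt2b and Wnt5b formed a group of overlapping neighbours with Wnt7b, above Wnt11.

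**Figure D1:**
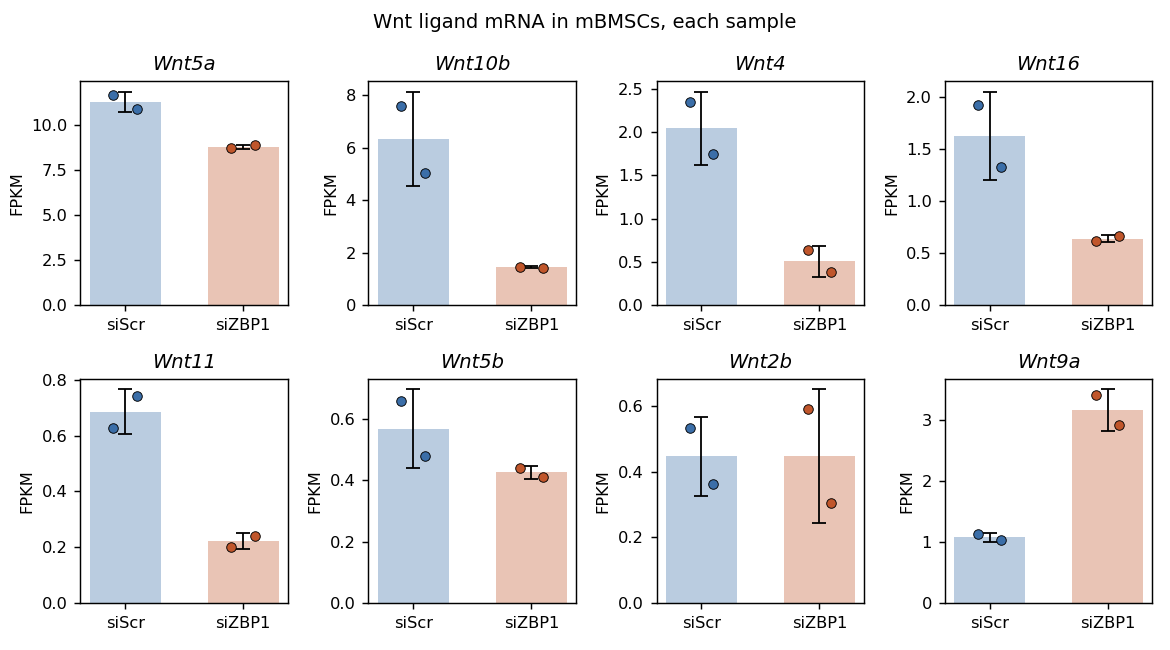
FPKM of the 8 ligands with values above 0 in both groups, with a bar for the mean of 2 samples, a line for ± 1 SD and a point for each sample; each panel has its own axis from 0. The siScr samples lie above the siZBP1 samples for Wnt5a, Wnt10b, Wnt4, Wnt16, Wnt11 and Wnt5b, the samples overlap for Wnt2b, and the siZBP1 samples lie above for Wnt9a.

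Wnt10b, which promotes osteoblast formation and blocks adipocyte formation through β-catenin, fell. It measured 7.61 and 5.06 FPKM in the siScr samples and 1.47 and 1.43 FPKM in the siZBP1 samples. The siZBP1 mean of 1.45 ± 0.0298 FPKM (SD, n = 2) was 4.38-fold lower, a size close to that of Wnt4, and the groups were far apart although the siScr pair was itself spread widely. Limma, a linear model that moderates each gene's variance with that of the others, was fitted on the log2(FPKM + 1) scale to 11956 genes averaging at least 1 FPKM. The Wnt10b log2 fold change was -1.56 (standard error 0.19, 95% interval -2.06 to -1.06, adjusted p = 0.00917, with Benjamini-Hochberg adjustment over all genes tested). A fold change on this scale understates that of a gene with low values.

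Wnt4 and Wnt16 fell with it. Wnt4, known for its part in kidney and female reproductive tract development and found to favour bone formation, measured 2.34 and 1.75 FPKM in siScr and 0.636 and 0.380 FPKM in siZBP1, 4.03-fold lower in the mean. Wnt16, which osteoblasts make and which protects cortical bone, measured 1.93 and 1.33 FPKM in siScr and 0.617 and 0.663 FPKM in siZBP1, 2.55-fold lower. In neither gene did any siZBP1 sample reach the lower siScr sample. The limma log2 fold change was -1.01 for Wnt4 (standard error 0.17, adjusted p = 0.0189) and -0.67 for Wnt16 (standard error 0.17, adjusted p = 0.0437). Both had means under 1 FPKM in siZBP1 cells, so that they passed the filter through the siScr samples. The call for Wnt16 was lost with a pseudocount of 0.1 in place of 1 (adjusted p = 0.0542), after quantile normalization (adjusted p = 0.0867) and with the replicate number as a block (adjusted p = 0.0552).

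Wnt11, a ligand of the polarity branch that moves cells in the embryo and appears during osteoblast maturation, was below the filter and was read from a second fit. That fit used log2(FPKM + 0.1) and took in 14821 genes averaging at least 0.1 FPKM. Wnt11 measured 0.628 and 0.743 FPKM in siScr and 0.202 and 0.241 FPKM in siZBP1, 3.09-fold lower, with a log2 fold change of -1.29 (standard error 0.28, 95% interval -2.02 to -0.55, adjusted p = 0.0352). The groups did not overlap, but the values are small. With transcript lengths and the spacing of the lowest FPKM values, they correspond to about 31 and 49 fragments in siScr and about 7 and 15 in siZBP1.

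The other ligands rest on unequal depth as well. By the same rough estimate the samples held 14.2 and 19.2 M fragments in siScr and 10.5 and 17.8 M in siZBP1, and no counting error was derived from it. Wnt5a came to between 642 and 1466 fragments in a sample, Wnt10b to 293 and 264 in siScr and 42 and 69 in siZBP1, and Wnt4 to 140 and 141 and then 28 in both. Wnt9a, Wnt16, Wnt5b and Wnt2b lay between 11 and 173 fragments in every sample.

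Wnt9a was the only member that rose. It takes part in joint formation, where it keeps joint cells from turning into cartilage, and can act through β-catenin. It measured 1.12 and 1.02 FPKM in siScr and 3.39 and 2.92 FPKM in siZBP1, so that its mean of 3.16 ± 0.338 FPKM (SD, n = 2) in siZBP1 cells was 2.94-fold higher. Every siZBP1 sample was above every siScr sample. The limma log2 fold change was 1.00 (standard error 0.12, 95% interval 0.68 to 1.32, adjusted p = 0.00909).

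Wnt5a, which osteoblast-lineage cells make and which promotes osteoclast formation through Ror2, fell by little. It measured 11.7 and 10.9 FPKM in siScr and 8.71 and 8.87 FPKM in siZBP1, 1.28-fold lower, and the groups were separate. The limma log2 fold change was -0.32 (standard error 0.067, 95% interval -0.50 to -0.15, adjusted p = 0.0289).

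For Wnt5b and Wnt2b no change was called. Wnt5b, the close relative of Wnt5a, measured 0.659 and 0.479 FPKM in siScr and 0.441 and 0.411 FPKM in siZBP1. Its groups did not overlap, but in the second fit its log2 fold change was -0.33 with a 95% interval of -1.07 to 0.40 (adjusted p = 0.447), which holds no change as well as a fall by 1.07. Wnt2b, best known for its part in eye and lung development, measured 0.533 and 0.363 FPKM in siScr and 0.592 and 0.305 FPKM in siZBP1, with a log2 fold change of -0.03 and a wide 95% interval of -1.04 to 0.98 (adjusted p = 0.965).

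Wnt6 and Wnt10a, which like Wnt10b hold back adipocyte formation, gave almost no signal. Wnt6 was at 0.0213 FPKM in siScr replicate 2, which corresponds to about 1 fragment, and at 0 in the other 3 samples. Wnt10a was at 0 in all 4 samples. No fold can be given for either. Of the 9 ligands outside the set, Wnt7b was the only one above 0.1 FPKM, at 0.565 and 0.533 FPKM in siScr and 0.562 and 0.752 FPKM in siZBP1, with overlapping groups. Wnt1, Wnt2, Wnt3 and Wnt8a reached at most 0.0571 FPKM in any sample, and Wnt3a, Wnt7a, Wnt8b and Wnt9b were at 0 in all samples.

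**Figure D2:**
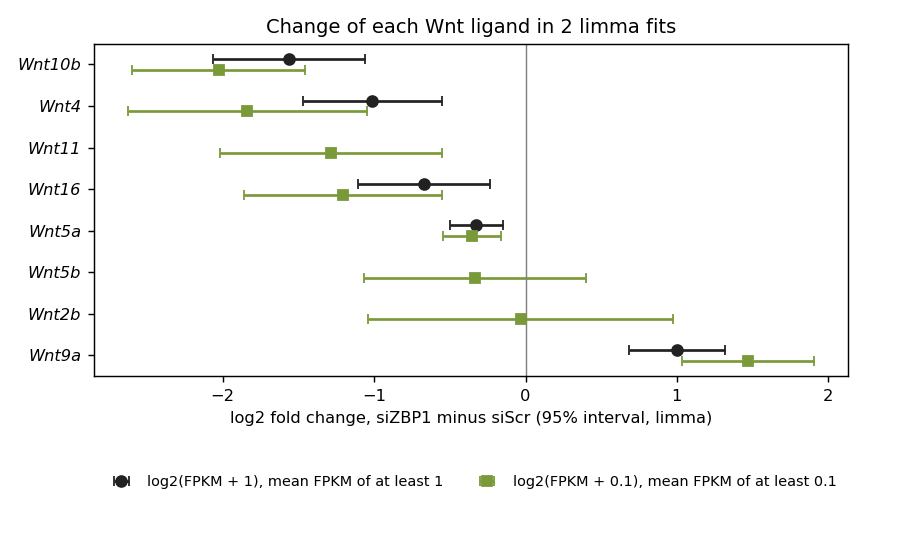
The log2 fold change of siZBP1 minus siScr with its 95% interval from limma (horizontal axis) for 8 ligands (vertical axis), as black circles for log2(FPKM + 1) and as green squares for log2(FPKM + 0.1). Wnt11, Wnt5b and Wnt2b were under the filter of the first fit and have a square only. Wnt10b, Wnt4, Wnt16, Wnt5a and Wnt11 lie below 0, Wnt9a lies above 0, and the intervals of Wnt5b and Wnt2b include 0.

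Across all genes tested, limma called 14.8% lower and 13.5% higher. Of the 10 ligands, 5 passed the filter, of which Wnt10b, Wnt4, Wnt16 and Wnt5a fell and Wnt9a rose. Wnt4 and Wnt16 passed it through the siScr samples, where they are high, which bears on this count. In the second fit, 12.6% of all genes were called lower and 10.8% higher, and of the 8 ligands that passed, 5 fell and 1 rose. Wnt11, called here but under the filter of the first fit, was not put through fits that left out a sample. By the ratio of group means, which needs no minimum level, 13.8% of the 16277 genes with both means above 0 were over 1.5-fold lower and 10.7% over 1.5-fold higher, and of 8 such ligands 4 were lower (Wnt10b, Wnt4, Wnt11 and Wnt16) and Wnt9a higher. Samples that did not overlap were common in this small design, in 29.3% of genes with any value above 0 for lower and 28.9% for higher, and 6 of the 9 ligands with any value were separate and lower and 1 was separate and higher. An exact permutation test of 2 samples against 2 cannot go below a two-sided p of 0.333, so the adjusted p-values rest on the variance that limma shares between genes. Without siZBP1 replicate 1 or without siZBP1 replicate 2, the largest and the smallest limma adjusted p of the 5 ligands were 0.180 and 0.0658, and none was called, while calls over all genes dropped to 48 lower and 22 higher, and to 113 lower and 32 higher. Without siScr replicate 1, Wnt4 and Wnt16 fell under the filter and Wnt5a lost its call (adjusted p = 0.0906).

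The makeup of the ligand mRNA differed between the groups. The FPKM values of the 19 ligands summed to 27.1 and 22.3 in the siScr samples and to 16.7 and 16.0 in the siZBP1 samples, so the sum was lower in both ZBP1-depleted samples. Ligands with at least 1 FPKM numbered 5 in each siScr sample and 3 in each siZBP1 sample. Wnt5a made up 46.0% ± 4.02 (SD, n = 2) of the sum in siScr and 53.9% ± 2.24 in siZBP1. Wnt10b went from 25.4% ± 3.82 to 8.86% ± 0.0714 of the sum, and Wnt9a from 4.37% ± 0.321 to 19.3% ± 1.51. Wnt4 had 8.25% ± 0.577 in siScr and 3.10% ± 1.02 in siZBP1, and Wnt16 had 6.56% ± 0.819 and 3.92% ± 0.314. The ratio of Wnt9a to Wnt10b, both per length, was 0.147 and 0.203 in the siScr samples and 2.31 and 2.05 in the siZBP1 samples, so the order of the pair was opposite in the groups. The sum of the ligands' values was between 0.00334% and 0.00550% of all FPKM of a sample. These shares are descriptions from 2 samples a group, with no test.

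**Figure D3:**
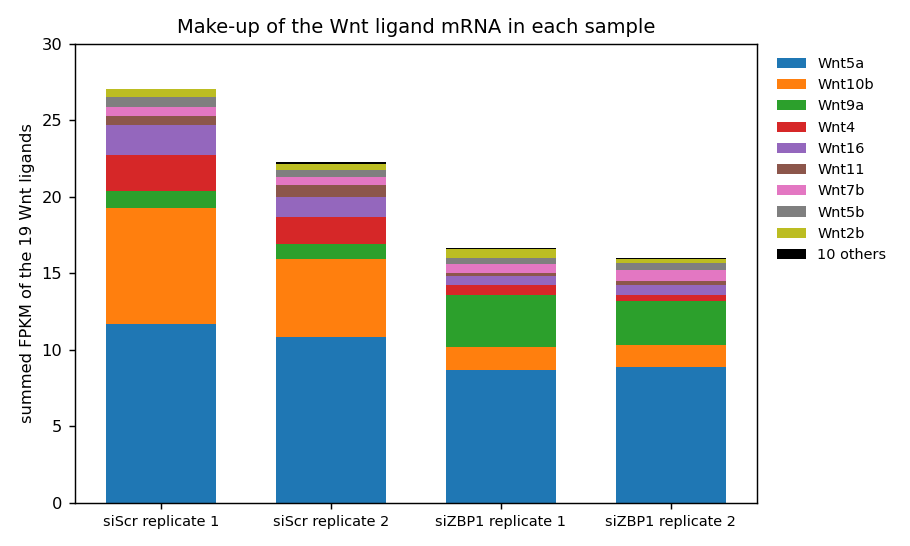
Summed FPKM of the 19 Wnt ligands (vertical axis) in each of the 4 samples (horizontal axis), stacked by ligand. Wnt5a is the largest block in every sample, the Wnt10b block is larger than the Wnt9a block in both siScr samples, and the Wnt9a block is larger than the Wnt10b block in both siZBP1 samples.

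The 250 bases before the annotated start are shown for a ligand that fell and was abundant in siScr cells (Wnt10b), the ligand that rose (Wnt9a) and a ligand that fell and holds the motif the study searched near Zbp1, a core site of Tcf factors (Wnt11). The sequences are from RefSeq on GRCm38.p6, 5′ to 3′ on the strand of the gene, and capitals mark a match to CTTTGAA or CTTTGAT or CTTTGTA or CTTTGTT on either strand.
Wnt10b, chr15:98778151-98778400, minus strand: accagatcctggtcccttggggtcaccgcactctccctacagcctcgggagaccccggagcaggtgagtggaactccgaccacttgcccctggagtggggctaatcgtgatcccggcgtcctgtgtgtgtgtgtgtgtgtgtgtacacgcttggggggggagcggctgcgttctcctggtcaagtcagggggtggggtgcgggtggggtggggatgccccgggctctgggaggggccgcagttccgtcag
Wnt9a, chr11:59306680-59306929, plus strand: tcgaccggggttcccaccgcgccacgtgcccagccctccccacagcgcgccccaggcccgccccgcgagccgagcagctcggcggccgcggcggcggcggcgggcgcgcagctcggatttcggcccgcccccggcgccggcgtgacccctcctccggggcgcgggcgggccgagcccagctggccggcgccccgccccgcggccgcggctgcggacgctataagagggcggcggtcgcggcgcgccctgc
Wnt11, chr7:98834862-98835111, plus strand: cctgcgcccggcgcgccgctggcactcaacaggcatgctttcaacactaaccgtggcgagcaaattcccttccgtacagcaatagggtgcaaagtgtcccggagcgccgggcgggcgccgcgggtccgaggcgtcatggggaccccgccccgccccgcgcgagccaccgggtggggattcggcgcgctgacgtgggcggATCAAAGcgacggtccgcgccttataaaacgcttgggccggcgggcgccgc
The stretch before Wnt9a is 84.4% G and C with 48 CpG dinucleotides, that before Wnt11 70.8% with 37, and that before Wnt10b 66.8% with 14. These contents do not set the ligand that rose apart. In windows that also take in 50 bases after the start, Wnt4, which fell, has 84.3% with 51, and Wnt9a 83.3% with 58. The medians over all such windows are 52.7% and 7. Only the Wnt11 stretch holds a match, to CTTTGAT on the minus strand, whose first base in the gene's direction lies at position -51 from the gene start. RefSeq windows from 250 bases before to 50 bases after the start matched 8 of the 10 ligands, with 11 windows, and 2 of these hold a match, the other at a start of Wnt5b. Among all 32851 windows, 16.9% hold a match, and among those of the genes tested by limma, 11.6%. The second window of Wnt11 and the other windows of Wnt5b hold none. The study searched a wider span around the Zbp1 start than these windows cover. A match is a description of letters, and its absence says nothing about binding outside the window.

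Several ligands lie beside another ligand in the genome. On GRCm38, with GENCODE models, Wnt10b is on chromosome 15 from 98770712 to 98778150 on the minus strand, 11.7 kb from Wnt1, which runs the other way with no coding gene between and was at 0.0214 FPKM in siScr replicate 2 and at 0 elsewhere. Wnt9a is on chromosome 11 from 59306928 to 59333552 on the plus strand, 16.2 kb from the divergent Wnt3a, which was at 0 in all samples. Wnt6 and Wnt10a lie 6.2 kb apart on the same strand of chromosome 1, and neither was expressed above 0.0213 FPKM. In each of these pairs at most 1 ligand was above 0.1 FPKM. Wnt4 lies on chromosome 4 from 137277489 to 137299726 on the plus strand, Wnt16 on chromosome 6 from 22288227 to 22298522 on the plus strand, Wnt11 on chromosome 7 from 98835112 to 98855195 on the plus strand and Wnt5a on chromosome 14 from 28504750 to 28527448 on the plus strand.

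The nearest tested coding genes on either side of the 6 ligands called in either fit (Wnt4, Wnt5a, Wnt9a, Wnt10b, Wnt11 and Wnt16) were 12, of which 2 fell and 3 rose. Limma called 14.8% of all genes tested lower and 13.5% higher, and a shared cause at any locus was not tested. Actr8, at 1450.9 kb from Wnt5a, was among those that rose (0.27, adjusted p = 0.0327). Beside Wnt10b, Arf3 at 7.5 kb had a log2 fold change of 0.23 (adjusted p = 0.0263) and Prkag1 at 34.6 kb one of 0.20 (adjusted p = 0.0347), both opposite to the fall of Wnt10b. Beside Wnt4, Cdc42 at 20 kb had 0.06 (adjusted p = 0.337) and Zbtb40 0.10 (adjusted p = 0.536), and beside Wnt9a, Arf1 had 0.13 (adjusted p = 0.0541) and Snap47 0.22 (adjusted p = 0.0812). Wnt16 had a neighbour that fell, Cped1 at 31.8 kb, from 4.16 to 2.28 FPKM (log2 fold change -0.66, adjusted p = 0.0229), while Fam3c at 8 kb on the other side had 0.21 (adjusted p = 0.137). Beside Wnt11, Uvrag at 29.8 kb had -0.03 (adjusted p = 0.709), and Lrrc32, at 332.9 kb, fell by 1.96 on the log2 scale (adjusted p = 0.00264). Wnt5b overlaps Fbxl14 on the other strand, but their exons share no base. The strand setting of the libraries is not stated, so reads of Wnt5a and Wnt6 could hold some from antisense transcripts annotated over them.

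The machinery that lipidates and secretes Wnt ligands was present and moved little. All 8 of its genes were tested, 2 fell and 1 rose, where 14.8% of all genes were called lower and 13.5% higher. The median log2 fold change was 0.05, against 0.0044 over all genes. Porcn, the acyltransferase, was at 14.8 FPKM in siScr and 17.3 FPKM in siZBP1 (log2 fold change 0.22, adjusted p = 0.277). Wls, the carrier, was at 159 and 154 FPKM in siScr and 136 and 137 FPKM in siZBP1 (log2 fold change -0.20, adjusted p = 0.0244). Tmed2, a cargo adaptor of the secretory pathway, fell as well (-0.32, adjusted p = 0.0138). Snx3, which returns Wls from endosomes, rose by a log2 fold change of 0.22 (adjusted p = 0.0288). Wls was named after its values were seen.

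Secreted proteins that bind the ligands fell as well. Of 9 listed antagonists and inactivating enzymes, 4 were tested and all 4 fell (median log2 fold change -1.74), namely Sfrp2, Wif1, Sfrp1 and Sfrp4, which capture Wnt ligands outside the cell. Sfrp2 measured 21.9 and 14.4 FPKM in siScr and 1.26 and 2.18 FPKM in siZBP1 (log2 fold change -2.81, adjusted p = 0.00543). Wif1 measured 6.47 and 4.002 FPKM in siScr and 0.728 and 0.226 FPKM in siZBP1 (log2 fold change -2.07, adjusted p = 0.0104). Sfrp1 had a log2 fold change of -1.42 (adjusted p = 0.00910). Wif1 averaged under 1 FPKM in siZBP1 cells and passed the filter through the siScr samples, which bears on the count and the median of this list. Over all genes tested, 14.8% were called lower, and every such gene is low in the siZBP1 pair by definition. A link between the 4 antagonists and the 4 ligands called lower by this fit was not tested.

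Among the receptors, 12 of 16 were tested, 5 fell and 1 rose (median log2 fold change -0.38), while 14.8% of all genes were called lower and 13.5% higher. Ryk, a receptor of Wnt5a, measured 37.0 and 32.7 FPKM in siScr and 14.9 and 16.4 FPKM in siZBP1 (log2 fold change -1.10, adjusted p = 0.00400). Fzd5 had a log2 fold change of -0.77 (adjusted p = 0.0104), with Fzd1, Fzd7 and Fzd8 also lower, and Fzd6 rose from 1.26 to 2.94 FPKM (0.80, adjusted p = 0.0105). Of the β-catenin branch inside the cell, 13 of 14 genes were tested and 2 fell, Apc and Tcf7 (median -0.06). Apc is part of the complex that marks β-catenin for destruction, and Tcf7 is a partner of β-catenin on DNA. Tcf7 measured 5.06 and 4.67 FPKM in siScr and 1.11 and 1.83 FPKM in siZBP1 (log2 fold change -1.26, adjusted p = 0.0110). Axin2, a common target of β-catenin, was at 1.70 FPKM in siScr and 1.13 FPKM in siZBP1. It was 1.51-fold lower with separate groups, but had no call (-0.34, adjusted p = 0.110). Tcf7l1 had -0.34 (adjusted p = 0.0606). Of the polarity and calcium branch, 13 of 17 were tested and 2 fell, Daam2 (-0.68, adjusted p = 0.0368) and Camk2g (-0.44, adjusted p = 0.0147), with a median of -0.11, and Prickle2 had 0.43 with no call (adjusted p = 0.0764). Daam2, at 1.52 FPKM in siScr and 0.566 FPKM in siZBP1, passed the filter through the siScr samples. In the β-catenin branch as in the polarity and calcium branch, 2 of 13 is near the 14.8% called lower over all genes.

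**Figure D4:**
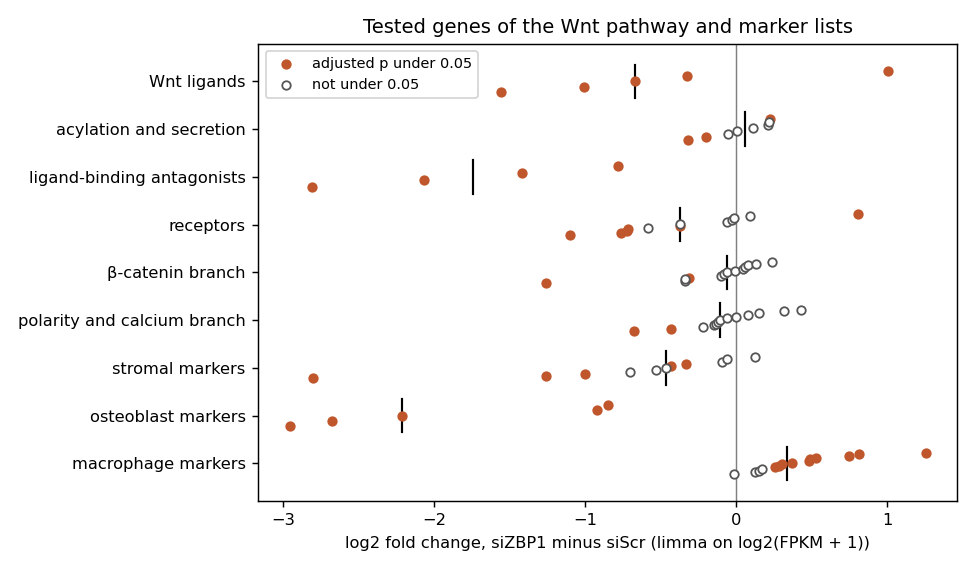
The log2 fold change of siZBP1 minus siScr from limma on log2(FPKM + 1) (horizontal axis) for each tested gene of the listed groups (vertical axis), filled where the adjusted p was under 0.05 and open where it was not, with a vertical line at each group's median. The 4 ligand-binding antagonists and the 5 osteoblast markers are all filled and below 0, the acylation and secretion genes lie close to 0, and 10 of 14 macrophage markers are filled and above 0.

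Markers of cell types also differed between the groups, where 14.8% of all genes tested were called lower and 13.5% higher. The 5 tested osteoblast markers of 8 all fell (Alpl, Sp7, Ibsp, Bglap and Runx2), and the summed level of the list was 411 and 333 FPKM in siScr and 64.1 and 60.2 FPKM in siZBP1, with Sost at 0 throughout. Bglap, at 2.16 FPKM in siScr and 0.664 FPKM in siZBP1, passed the filter through the siScr samples. Of 11 tested stromal markers of 12, 5 fell (Cxcl12, Col1a1, Prrx1, Pdgfrb and Eng) and the sum was 5915 and 4889 FPKM against 3478 and 3512 FPKM, a difference that lay mostly in Col1a1 (means of 2793 and 1160 FPKM). Col1a2, Col3a1, Thy1 and Vcam1 overlapped between the groups, and the mean of Col3a1 was 248 FPKM in siScr and 266 FPKM in siZBP1. Of the 14 macrophage markers, 10 rose, with sums of 9829 and 10838 FPKM in siScr and 15327 and 14610 FPKM in siZBP1. The largest single difference in this sum was that of Lyz2 (means of 3230 and 5636 FPKM), and Adgre1, Cd14, Mpeg1 and Ptprc were not called. The 2 tested endothelial markers of 6 were not called, of 5 tested adipocyte markers of 8 Cd36 and Pparg fell and Lpl rose, and of the 8 lymphoid markers only Cd4 was tested and rose. The part of these shifts in the levels of the Wnt ligands was not tested.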

How the data were processed

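RNA was collected from mBMSCs 72 h after transfection with siScr (2 samples) or siZBP1 (2 samples). The authors deposited FPKM values per gene symbol, made from TruSeq libraries of poly(A) RNA mapped to mm10 with TopHat. The study's methods name HTSeq for the extraction and the submitters' processing notes name Cufflinks. The gene annotation, the strand setting and the numbers of reads are not given in the sources used here, so depth was only estimated from the lowest values. The authors' group means equal those of the replicates. A pair of symbols that occurred in 4 rows was left out, which left 24342 rows, of which 6558 were at 0 in all samples.

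In R 4.3.3, limma 3.58.1 was run two-sided on log2(FPKM + 1) with its variance trend on, taking genes that averaged 1 FPKM or more, and p-values were adjusted after Benjamini-Hochberg (threshold 0.05). A second fit used a mean of at least 0.1 and a pseudocount of 0.1. Intervals are at 95%. It was tested on simulated data. Ratios of group means were counted past 1.5-fold. Gene models were from GENCODE M21 on GRCm38, with fragments estimated on the longest coding transcript. Python 3.11.15 with pandas 2.3.3, numpy 2.4.6, scipy 1.17.1 and matplotlib 3.10.9 was used.

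Alternatives changed the filter, the pseudocount, the scaling, the variance trend and the block, and left out each sample in turn. All 10 members and Zbp1 are named, with other ligands above 0, up to 3 tested genes with the largest change in each pathway list and the listed markers. Genes named to complete a count, the nearest tested coding genes, and the choice of promoters printed were taken after values were seen. The members and the lists were chosen with earlier results of these data known.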

Additional observations from a re-analysis of the deposited data

How the results depend on the processing

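Under the alternatives that kept all samples, 43 of 46 values of the 5 tested ligands stayed past the threshold. The exceptions were those of Wnt16, with a log2 fold change of -1.20 with a pseudocount of 0.1, -0.53 after quantile normalization and -0.67 with the replicate block. A mean of at least 5 FPKM left only Wnt5a among the ligands tested, with 1 called lower and 0 higher. Quantile normalization moved the median of all genes to 0.043 and gave 1517 lower and 1813 higher calls.

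With a sample left out, 7 of 18 ligand values stayed past the threshold and 0 changed sign. These fits take the lone sample of a group to vary as the pair does. The log2 fold change ranged from -1.81 to -1.31 for Wnt10b, from -1.15 to -0.89 for Wnt4, from -0.84 to -0.65 for Wnt16, from -0.37 to -0.28 for Wnt5a, from 0.92 to 1.08 for Wnt9a and from -2.79 to -2.33 for Zbp1. The ligands called lower numbered from 0 to 4 and those called higher from 0 to 1. Over all genes, between 48 and 1467 were called lower and between 22 and 1247 higher, the values without siScr replicate 1 being 938 and 713. Zbp1 itself had a limma adjusted p of 0.0618 without siZBP1 replicate 1 and 0.0511 without siZBP1 replicate 2.

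The deviations of same-numbered samples from their group means correlated at -0.063 over 11956 genes, so the replicate numbers were not taken as pairs. With the replicate number as a block, 1653 genes were called lower and 1463 higher, and 3 ligands were lower and 1 higher. Depth limits Wnt11, Wnt5b and Wnt2b in every sample, each at about 49 fragments or fewer. It also limits the siZBP1 levels of Wnt4, at about 28 fragments in both samples, and of Wnt16, at about 21 and 39. Wnt10b had about 42 in siZBP1 replicate 1.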
